A study of Mus musculus with 6 samples.

Results

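The enzymes and receptor described here make, break down or sense small molecules whose presence or depletion restrains immune cells. They are 10 mouse genes fixed by name, namely Nt5e, Entpd1, Ada and Adora2b of the adenosine route, Ido1 of the tryptophan route, Arg1, Arg2 and Nos2 of the arginine route, and Ptgs2 and Ptges of the prostaglandin route. Each symbol matched 1 of the 55357 genes in the deposited table. The tumours grew under the skin of C57BL/6J mice from 250000 injected KPC1242 cells, a transplanted mouse line of pancreatic ductal adenocarcinoma. From day 8 to day 12 the mice received 2 mg folinic acid (FA), a reduced folate, or phosphate-buffered saline (PBS) by gavage once a day, and tumours were taken on day 14. There were 3 FA tumours and 3 PBS tumours, with 1 RNA library each. The labels do not state that each tumour came from its own mouse, so p-values measure the spread between these tumours. One line at a subcutaneous site limits the model, and the sample descriptions carry a different prefix in each treatment, whose meaning cannot be told apart from FA.

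Extracellular ATP released by stressed cells is cut to AMP by CD39 and then to adenosine by CD73. Adenosine damps T cells and NK cells through its receptors, until adenosine deaminase turns it into inosine. Arginase and inducible nitric oxide synthase both consume arginine, which T cells need to divide. Indoleamine 2,3-dioxygenase opens the kynurenine pathway, which depletes tryptophan and makes ligands of the aryl hydrocarbon receptor. Cyclooxygenase and prostaglandin E synthase turn arachidonic acid into prostaglandin E2, which acts on myeloid cells and lymphocytes. In pancreatic tumours these activities are known from both cancer cells and recruited myeloid cells.

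Promoter windows of RefSeq (GRCm38.p6, from 250 bases before to 50 bases after the gene start) were found for 6 of the 10 genes, namely Nt5e, Entpd1, Ada, Adora2b, Ptgs2 and Ptges. No window was found for Ido1, Arg1, Arg2 and Nos2. Coordinates are those of RefSeq, since the sources used here do not give the build behind the deposited table. Those of Ptgs2 (chr1:150099781-150100080, plus strand) and Nt5e (chr9:88327359-88327658, plus strand) are shown because Ptgs2 varied most and Nt5e least between tumours of a group among these 6 genes. Capitals mark matches on either strand to 6 motifs.
Ptgs2: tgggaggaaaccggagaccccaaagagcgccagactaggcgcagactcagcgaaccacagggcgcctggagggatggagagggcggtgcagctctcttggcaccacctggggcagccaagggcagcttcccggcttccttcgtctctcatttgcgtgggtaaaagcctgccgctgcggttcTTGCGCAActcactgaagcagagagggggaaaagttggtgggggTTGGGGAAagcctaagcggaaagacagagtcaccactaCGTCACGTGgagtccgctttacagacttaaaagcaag
Nt5e: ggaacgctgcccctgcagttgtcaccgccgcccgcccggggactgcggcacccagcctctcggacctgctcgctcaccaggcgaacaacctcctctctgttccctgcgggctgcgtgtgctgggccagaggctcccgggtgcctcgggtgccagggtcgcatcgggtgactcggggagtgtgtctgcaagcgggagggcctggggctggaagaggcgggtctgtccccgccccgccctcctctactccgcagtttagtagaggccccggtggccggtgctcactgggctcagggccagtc
The motifs were the TATA box TATAAA, the hypoxia response core ACGTG, the C/EBP motif TTNNNCAA, the AP-1 motif TGANTCA, the E-box CACGTG, which contains ACGTG, and the CRE core TGACG. They occurred in 13.6%, 19.6%, 36.7%, 7.81%, 7.15% and 20.8% of 32851 windows of 300 bases, in the same order. With 0 as the first of the final 50 bases, the Ptgs2 window held C/EBP matches from -69 (TTGCGCAA) and -25 (TTGGGGAA), and an E-box from 16 that overlapped a CRE core from 13. A CRE core also lay at -135 in the first and at -183 in the second of 2 Entpd1 windows, and the windows of Nt5e, Ada, Adora2b and Ptges held none of the 6. A match describes letters in this window and no more. The Nt5e window had 71.0% G and C, against 59.3% for Ptgs2 and a median of 52.7% over the windows.

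Values are TPM, the share of each gene among the transcripts of a tumour after correction for transcript length, so levels can be compared between genes. TPM keeps no sequencing depth. The tumours had 23858 to 25669 genes above 0, and the 15023 whose mean reached 1 TPM were tested for FA against PBS with limma on log2(TPM + 1). Markers of ductal epithelium, led by Krt18 and Krt8, summed to between 4956 and 5891 TPM over 9 genes. FA replicate 3 stood apart from the others. Across genes, themselves no replicates, its highest correlation with any tumour was 0.968, while that of each other tumour was 0.986 or 0.987. Its summed macrophage markers (11 genes, led by Lyz2 and C1qa) were at 2310 TPM against 1140 to 1446 TPM elsewhere, fibroblast markers (9 genes, led by Col3a1 and Col1a1) at 7078 against 2278 to 4044 TPM, and endothelial markers (6 genes, led by Pecam1 and Cdh5) at 208 against 54.6 to 95.1 TPM. In whole-tumour RNA, fewer cells of a type and less RNA per cell cannot be told apart.

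Arg1 was the most abundant of the 10 genes, with a mean of 108 TPM over the 6 tumours, followed by Nt5e at 64.0 and Ptgs2 at 37.9 TPM. Entpd1 (11.4 TPM) and Ptges (11.1 TPM) came next, then Ada (6.14 TPM), Arg2 (2.78 TPM), Nos2 (2.55 TPM), Adora2b (1.64 TPM) and Ido1 (0.525 TPM). Neighbours in this order had overlapping ranges except Ptgs2 above Entpd1 and Adora2b above Ido1. Within single tumours Arg1 exceeded Nt5e in 5 of 6 and Nt5e exceeded Ptgs2 in 5 of 6, while Entpd1 exceeded Ptges in 3 of 6. Ido1 was below Adora2b, the next lowest, in 6 of 6. FA and PBS values overlapped for each of the 10 genes, where 4.69% of tested genes had groups that did not overlap.

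**Figure D1:**
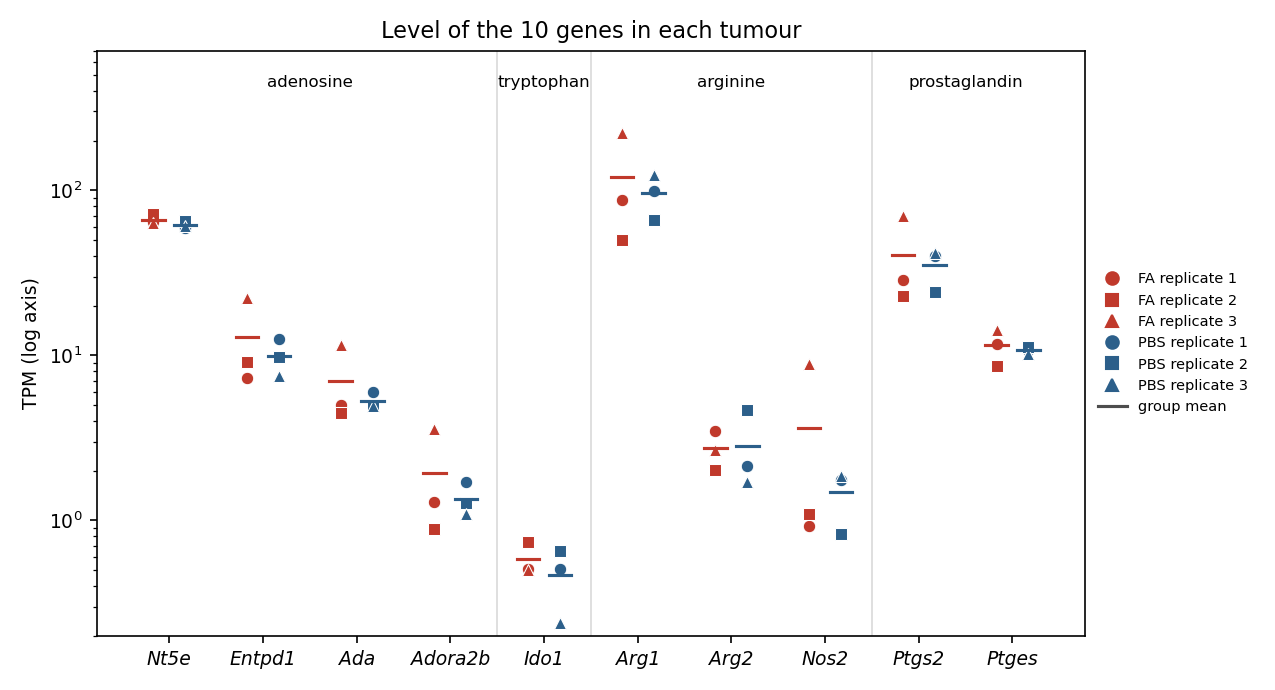
TPM (log axis) of the 10 genes in the 3 FA tumours (red) and 3 PBS tumours (blue), with symbols for replicates and bars for group means. The FA replicate 3 symbol lies above the other 5 tumours for Entpd1, Ada, Adora2b, Arg1, Nos2, Ptgs2 and Ptges, and the 6 symbols of Nt5e lie between 59.2 and 71.5 TPM.

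The levels were compared between FA and PBS to ask whether FA altered them. By limma, 0 of the 9 tested members were higher and 0 were lower at a Benjamini-Hochberg adjusted p under 0.05, as for the whole table (0% of 15023 genes in each direction). At an unadjusted p under 0.05 there were 0 of 9 members, against 1.28% of the tested genes. The adjusted p was 1 for each of the 9. Their mean log2 differences were above 0 in 9 of 9, with a median of 0.10, against 50.7% and a median of 0.0016 for the tested genes. Without FA replicate 3, 7 of the 9 were below 0, the exceptions being Nt5e and Arg2. Those 7 were the members highest in that tumour, so leaving it out necessarily lowered their FA mean. That tumour was singled out after values had been seen. The median over the tested genes without it was 0.013. Ido1 was below 1 TPM and was not among the genes tested.

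**Figure D2:**
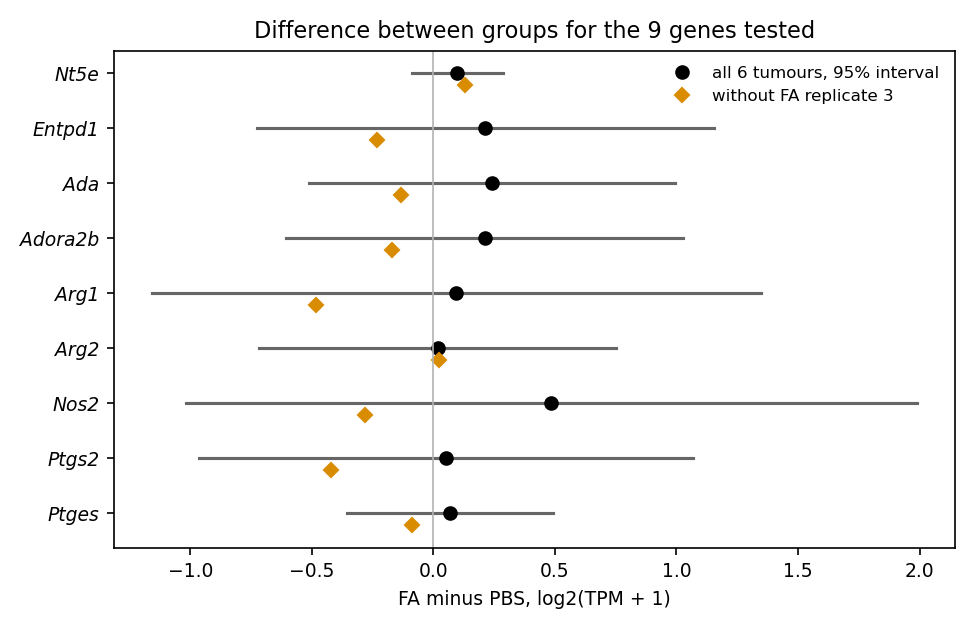
FA minus PBS on the log2(TPM + 1) scale for the 9 tested genes, with circles for the 6 tumours, bars for 95% intervals and diamonds for the difference without FA replicate 3. Each bar crosses 0, and 7 of the 9 diamonds lie below 0.

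In the adenosine route, Nt5e was abundant and steady. Nt5e (ENSMUSG00000032420), which encodes CD73, stood at 63.9, 71.5 and 63.3 TPM with FA (replicates 1, 2 and 3, the order used throughout) and at 59.2, 65.0 and 60.9 TPM with PBS. FA replicate 2 was the highest, and PBS replicate 2 was above the other two FA tumours. The means were 66.2 ± 4.58 and 61.7 ± 2.98 TPM (SD, n = 3 each). The log2 difference was 0.10 ± 0.078 (standard error), with a 95% interval from -0.087 to 0.29, which is 0.942-fold to 1.22-fold of TPM + 1. Its spread within groups was larger than that of 16.3% of the tested genes, the lowest such share among the members. Of the 9 tested members, Nt5e was thus the one for which these tumours bounded the difference most closely.

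Entpd1 (ENSMUSG00000048120), which encodes the ATP-cleaving ectoenzyme CD39, was at 7.29, 9.08 and 22.1 TPM with FA and at 12.6, 9.80 and 7.46 TPM with PBS. One FA tumour was the highest and another the lowest of the 6. The log2 difference of 0.21 ± 0.39 had an interval from -0.73 to 1.15, and it was -0.23 without FA replicate 3. Ada (ENSMUSG00000017697), the deaminase that removes adenosine, was at 5.00, 4.46 and 11.5 TPM with FA and at 6.03, 4.93 and 4.94 TPM with PBS. Apart from FA replicate 3, Ada lay within 4.46 to 6.03 TPM. Its difference was 0.24 ± 0.31, with an interval from -0.51 to 0.99, and -0.13 without that tumour. Adora2b (ENSMUSG00000018500), the low-affinity adenosine receptor, was at 1.29, 0.89 and 3.59 TPM with FA and at 1.70, 1.27 and 1.09 TPM with PBS. It had the same highest tumour and the same lowest tumour as Ada, FA replicates 3 and 2. The difference was 0.21 ± 0.34, with an interval from -0.60 to 1.03, and -0.17 without FA replicate 3.

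Other adenosine genes also stayed under the threshold. Of 23 genes in the route, 20 were tested, 13 with a higher and 7 with a lower mean in FA, and 0 were called in either direction. The median log2 difference was 0.092, against 0.0016 for the tested genes, and -0.062 without FA replicate 3. Adora2a, the high-affinity adenosine receptor of lymphocytes and myeloid cells, was at 3.10, 4.55 and 4.95 TPM with FA and at 3.26, 3.83 and 2.66 TPM with PBS, above Adora2b in each of the 6. Adora1, an inhibitory receptor, was at 0.67 to 2.15 TPM. Entpd2, another ATP-cleaving ectoenzyme, had the smallest unadjusted p of the other members of the route (0.165), with a log2 difference of -0.38 ± 0.24, and Enpp1, which makes AMP from ATP, differed by -0.21 ± 0.17. Cd38, which feeds adenosine from NAD, was between 13.6 and 23.4 TPM. Adk, the kinase that returns adenosine to AMP inside cells, was between 59.7 and 75.5 TPM, near the level of Nt5e, with a difference of -0.097 ± 0.095.

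The arginine route held the most abundant and the most variable member. Arg1 (ENSMUSG00000019987), the cytosolic arginase of tumour macrophages, was at 87.1, 50.2 and 221 TPM with FA and at 98.8, 65.6 and 123 TPM with PBS. The lowest and the highest tumour were both FA, and the PBS tumours lay between them. The means were 120 ± 90.2 and 95.8 ± 28.7 TPM (SD, n = 3 each). The log2 difference was 0.094 ± 0.52, with an interval from -1.16 to 1.35, and -0.48 without FA replicate 3. Nos2 (ENSMUSG00000020826), the inducible nitric oxide synthase of activated macrophages, was at 0.92, 1.09 and 8.85 TPM with FA and at 1.76, 0.83 and 1.86 TPM with PBS. FA replicate 3 had 4.76 times the value of the next tumour, and the remaining FA tumours lay inside the PBS range. The difference was 0.48 ± 0.63, the largest among the tested members, with an interval from -1.02 to 1.99, and it was -0.28 without FA replicate 3. Arg2 (ENSMUSG00000021125), the mitochondrial arginase, was at 3.50, 2.02 and 2.66 TPM with FA and at 2.13, 4.65 and 1.71 TPM with PBS. It was highest in PBS replicate 2, unlike Arg1 and Nos2, and differed by 0.018 ± 0.31, with an interval from -0.72 to 0.75. Its mean TPM was lower with FA, at 2.73 ± 0.742 against 2.83 ± 1.59 (SD, n = 3 each), so the scales differ in sign.

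Of 23 arginine genes, 20 were tested, and 0 were called higher or lower. Means were higher in FA for 13 and lower for 7, with a median log2 difference of 0.021, and of -0.079 without FA replicate 3. Sms, which makes spermine, had the smallest unadjusted p of the route (0.0425). It was at 58.8, 54.9 and 55.0 TPM with FA and at 68.1, 61.2 and 62.6 TPM with PBS, so each FA value lay below each PBS value, with a difference of -0.18 ± 0.073 and an adjusted p of 1 by limma. The polyamine acetyltransferase gene Sat1 differed by -0.23 ± 0.17 and the argininosuccinate lyase gene Asl by -0.18 ± 0.14. Odc1, which turns the ornithine made by arginase into putrescine, ranged from 233 to 267 TPM, with a difference of 0.072 ± 0.065. The arginine carrier gene Slc7a2 was at 7.50 to 10.9 TPM. Ass1, which rebuilds arginine from citrulline, was at 24.6 TPM in FA replicate 3 and at 11.1 to 13.7 TPM in the other 5 tumours.

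Transcripts for the first step of tryptophan breakdown were low. Ido1 (ENSMUSG00000031551), the interferon-inducible dioxygenase, was at 0.51, 0.74 and 0.50 TPM with FA and at 0.51, 0.65 and 0.24 TPM with PBS. FA replicate 2 was the highest and PBS replicate 3 the lowest. The mean log2 difference was 0.12, and an exact two-sided permutation test over the 20 assignments gave p = 0.6, where the smallest possible is 0.1. The other enzymes of this first step were as low, with Ido2 between 0.42 and 0.68 TPM and Tdo2 between 0.10 and 0.23 TPM. Each Tdo2 value with FA lay below each with PBS, but its mean was under the 1 TPM needed for the test. Ido2 and Tdo2 were chosen after their values were seen. Kynu, the kynureninase gene, was at 0.31 to 0.76 TPM, and Il4i1, an amino acid oxidase that also makes aryl hydrocarbon receptor ligands, at 1.01 to 2.20 TPM. Ahr, the receptor itself, was well expressed, at 31.0 to 50.7 TPM, and differed by -0.12 ± 0.17.

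In the tryptophan route 14 of 26 genes were tested, 8 with a higher and 6 with a lower mean, and 0 were called. The median log2 difference was 0.011, and 0.0083 without FA replicate 3. Cyp1b1, a target gene of the receptor, had the smallest unadjusted p (0.112) and a difference of 0.31 ± 0.17. It was followed by Afmid, the formamidase of the second step, at -0.17 ± 0.14, and Kmo, the kynurenine monooxygenase gene, at 0.28 ± 0.24. Kmo was at 2.54 TPM in FA replicate 3 and at 0.82 to 1.55 TPM in the other 5. Of the other target genes of the receptor in the list, Tiparp differed by -0.059 ± 0.17. Ahrr (0.22 to 0.41 TPM) and Cyp1a1 (at most 0.03 TPM) were too low to be tested.

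Of the cyclooxygenase genes, the inducible one was the more abundant. Ptgs2 (ENSMUSG00000032487), which encodes cyclooxygenase 2, was at 28.5, 22.7 and 70.0 TPM with FA and at 40.0, 24.2 and 41.8 TPM with PBS. The highest and the lowest tumour were both FA, and the order of the 6 tumours was the same as for Arg1. The means were 40.4 ± 25.8 and 35.4 ± 9.69 TPM (SD, n = 3 each). The log2 difference was 0.054 ± 0.43, with an interval from -0.96 to 1.07, and -0.42 without FA replicate 3. Ptges (ENSMUSG00000050737), the inducible microsomal prostaglandin E synthase, was at 11.8, 8.55 and 14.3 TPM with FA and at 10.8, 11.2 and 10.2 TPM with PBS. The 3 PBS tumours lay within 10.2 to 11.2 TPM, inside the range of the FA tumours. Ptges differed by 0.069 ± 0.18, with an interval from -0.36 to 0.49, and by -0.087 without FA replicate 3.

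The constitutive cyclooxygenase gene Ptgs1 was at 13.3 to 15.1 TPM in FA and at 12.2 to 14.9 TPM in PBS tumours, below Ptgs2 in each of the 6. Ptges2 and Ptges3, the other synthase genes, were at 21.1 to 25.5 and at 171 to 202 TPM, and the phospholipase gene Pla2g4a, whose product releases arachidonic acid, at 40.3 to 49.8 TPM. Hpgd, which inactivates prostaglandin E2, was at 2.12 to 3.79 TPM. Among the receptors of prostaglandin E2, Ptger4 was at 10.1 to 16.9 TPM and Ptger2 at 0.25 to 0.62 TPM. Hpgds, the synthase of prostaglandin D2, was at 3.49, 3.31 and 3.66 TPM with FA and at 2.92, 2.13 and 2.59 TPM with PBS. Each FA value of Hpgds lay above each PBS value, with a difference of 0.34 ± 0.14, an unadjusted p of 0.0461 and an adjusted p of 1 by limma. Ptgds, the other synthase gene of prostaglandin D2, chosen after its values were seen, was at 9.47, 10.7 and 1.03 TPM with FA and at 8.93, 13.1 and 9.77 TPM with PBS. It was lowest in FA replicate 3, and its difference of -0.87 ± 0.65, with an adjusted p of 1 by limma, was -0.053 without that tumour. The transporter genes Slco2a1 and Abcc4 followed Hpgds by unadjusted p, with differences of 0.32 ± 0.18 and 0.18 ± 0.12. Of 27 genes in the route, 19 were tested, 11 with a higher and 8 with a lower mean, and 0 were called. Their median was 0.054, and -0.053 without FA replicate 3.

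Genes known to induce or regulate these enzymes were followed as a further list of 26, of which 23 were tested and 0 called. The median log2 difference was 0.033, and 0.016 without FA replicate 3, with 16 higher and 7 lower means. Irf1, a factor needed for induction of Nos2 by interferon, differed by 0.13 ± 0.092. The cytokine gene Csf2 was at 9.41 TPM in FA replicate 3 and at 1.81 to 2.97 TPM in the other 5, with a difference of 0.61 ± 0.46. Of the 23 tested regulators, 13 were highest in that tumour, against 29.4% of the tested genes. Among them were Il6 (4.56-fold over the median of the other 5), Epas1 (3.41-fold) and Il1a (2.91-fold), named after their values were seen. Other tested regulators were lowest there, namely Klf4 (0.729-fold), Ifngr1 (0.760-fold), Nfe2l2 (0.829-fold), Ifngr2 (0.862-fold), Stat3 (0.911-fold) and Stat6 (0.938-fold).

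**Figure D3:**
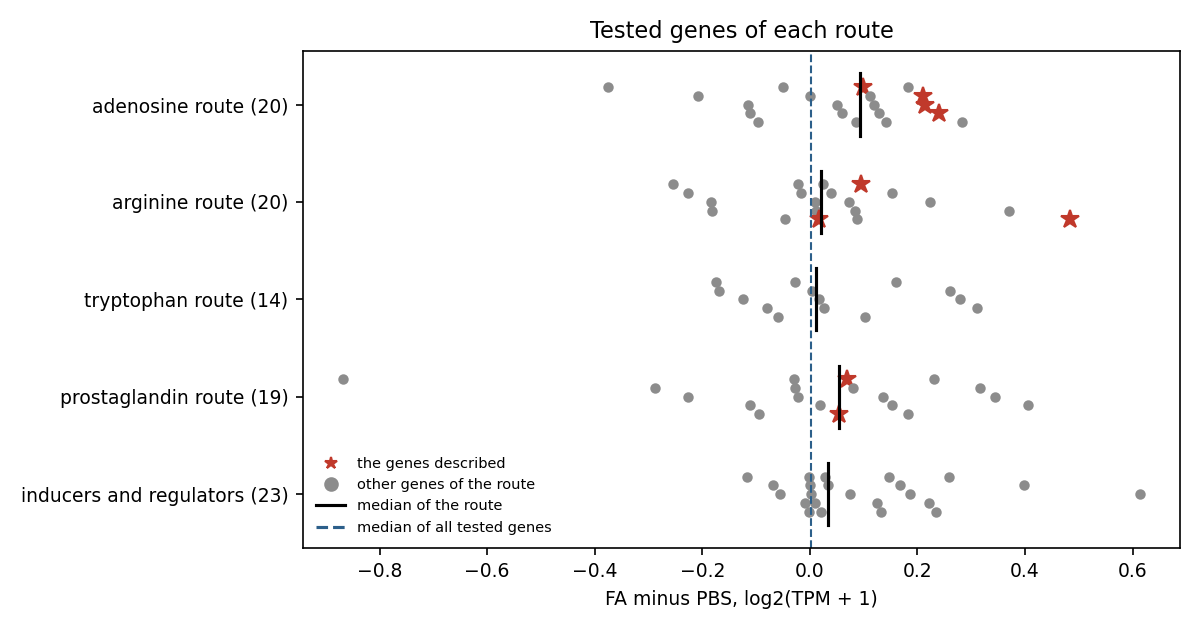
FA minus PBS on the log2(TPM + 1) scale for each tested gene of the 4 routes and of the regulators (number tested in brackets), with stars for the genes described, black bars for route medians and a dashed line for the median of the tested genes. Route medians lie between 0.011 and 0.092, and Nos2 lies to the right of the other arginine genes.

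With FA replicate 3 included, most of these genes varied widely between tumours of a group. The spread within groups was above that of the median gene for 8 of 9 tested members, larger than in 98.3% of tested genes for Nos2, 97.6% for Arg1, 96.2% for Ptgs2, 95.4% for Entpd1, 92.5% for Adora2b, 91.7% for Ada, 90.6% for Arg2 and 72.7% for Ptges. Spread on this scale also depends on the level of a gene, which was not matched here. These ranks include FA replicate 3, and ranks without it were not computed. Among PBS tumours alone the SD of log2 values was 0.066 for Ptges, 0.068 for Nt5e, 0.14 for Ada and 0.19 for Adora2b. It was 0.34 for Entpd1, 0.36 for Nos2, 0.42 for Ptgs2, 0.45 for Arg1 and 0.56 for Arg2. This SD was larger in FA than in PBS for 8 of 9 members, the exception being Arg2, while 70.0% of the tested genes showed the same. Among FA replicates 1 and 2 alone it was larger than in PBS for 4 of 9 members, against 38.4% of tested genes.

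FA replicate 3, singled out after values had been seen, was the highest tumour for 7 of the 9 tested members, against 29.4% of the tested genes. It was at least 2-fold over the median of the other 5 tumours for 6 of 9, namely Nos2 (8.12-fold), Adora2b (2.83-fold), Arg1 (2.54-fold), Ptgs2 (2.46-fold), Entpd1 (2.44-fold) and Ada (2.32-fold), against 6.09% of the tested genes. Ptges stood at 1.32-fold, Arg2 at 1.25-fold, Nt5e at 0.991-fold and Ido1 at 0.980-fold. In the same tumour the summed markers were 1.91-fold for macrophages (11 of 11 genes highest there), 2.39-fold for monocytes and neutrophils (8 of 9), 2.16-fold for dendritic cells (6 of 7), 2.47-fold for fibroblasts (8 of 9), 3.01-fold for endothelium (6 of 6) and 9.31-fold for skeletal muscle (6 of 6). They were 1.08-fold for ductal epithelium (4 of 9), 1.56-fold for T, NK and B cells (5 of 9), 1.38-fold for skin epithelium (3 of 7), 1.71-fold for mast cells (1 of 5) and 0.760-fold for hypoxia genes (1 of 10). These counts include genes with a mean below 1 TPM. Only 4 of 9 monocyte and neutrophil, 4 of 7 dendritic, 0 of 9 lymphocyte and 2 of 7 skin genes reached it. Single ductal genes were uneven in that tumour. Cldn4 (4.05-fold), Epcam (2.77-fold), Krt8 and Krt19 were highest there, while Cdh1 (0.710-fold), Sox9 (0.665-fold) and Muc1 (0.605-fold) were lowest there. The neutrophil marker Ly6g was listed at 0 in 5 tumours, FA replicate 3 among them. The part of these cell types in the levels of the members was not tested.

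Over both groups, summed macrophage markers ranged from 1140 to 2310 TPM in FA and from 1159 to 1446 TPM in PBS tumours, and those of monocytes and neutrophils from 25.6 to 65.2 and from 26.4 to 32.1 TPM. Dendritic cell markers ranged from 14.1 to 31.5 TPM in FA and from 13.6 to 18.1 TPM in PBS tumours. Fibroblast markers ranged from 2349 to 7078 TPM in FA and from 2278 to 4044 TPM in PBS tumours, endothelial markers from 54.6 to 208 and from 60.1 to 95.1 TPM, and muscle markers from 12.7 to 1103 and from 14.4 to 160 TPM. Lymphocyte markers were scarce, at 1.32 to 3.50 and 1.20 to 2.25 TPM over 9 genes, and 3 of them were listed at 0 in at least 1 tumour. Hypoxia markers, led by Ndrg1 and Vegfa, ranged from 686 to 1226 TPM in FA and from 990 to 1137 TPM in PBS tumours.

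**Figure D4:**
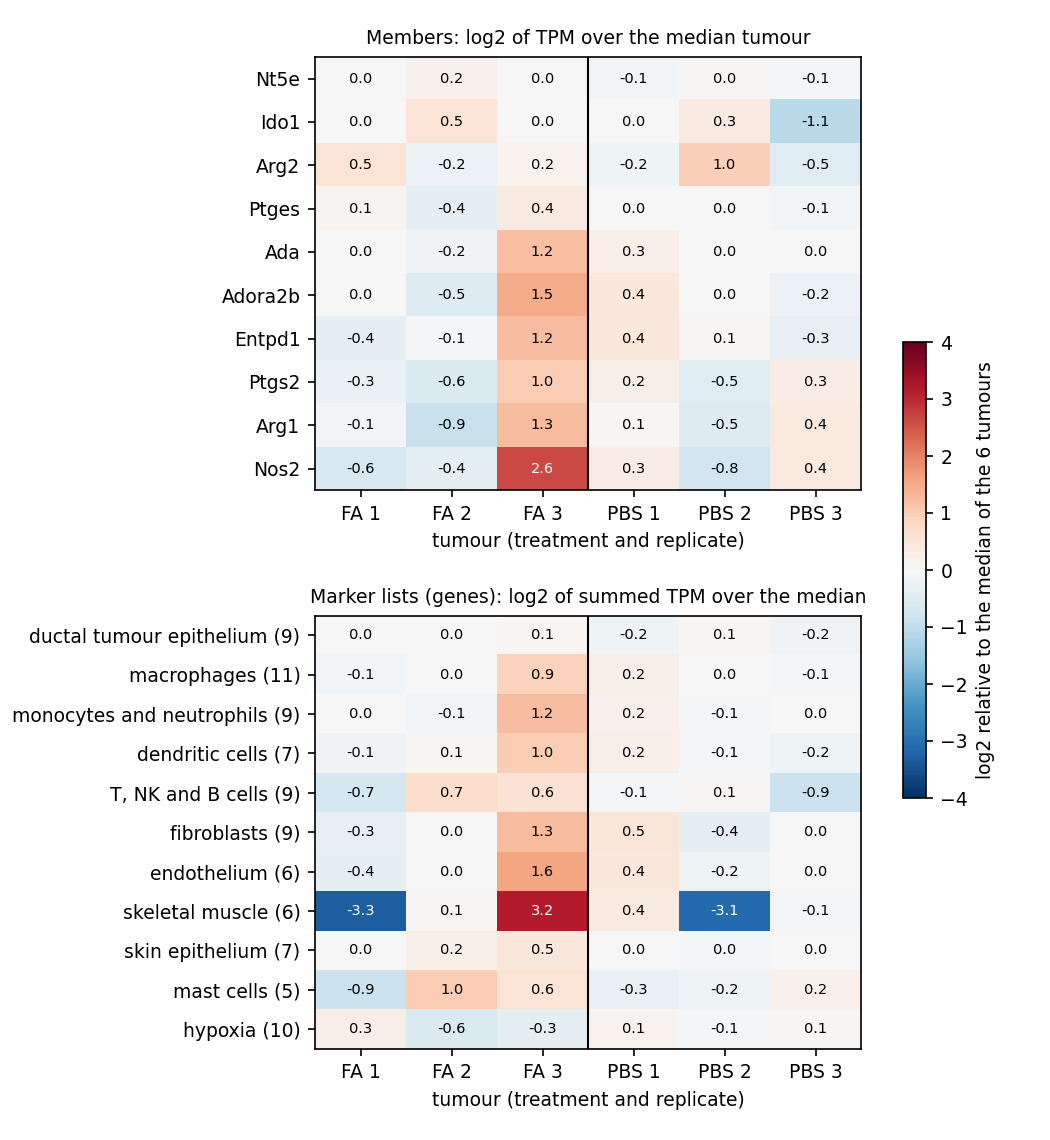
Each tumour relative to the median of the 6, as log2, for the TPM of the 10 genes (upper) and for the summed TPM of 11 marker lists (lower), with FA tumours left and PBS tumours right of the line. FA replicate 3 is red for 6 members by at least 1 log2 unit and for the myeloid, fibroblast, endothelial and muscle lists. Nt5e and the summed ductal epithelium list, whose single genes are not shown, are nearly even.

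Pairs of genes from the same route were also compared within each tumour, as log2((TPM + 1)/(TPM + 1)). The ratio of Arg1 to Nos2, which compete for arginine, was 5.52, 4.61 and 4.50 with FA and 5.18, 5.19 and 5.44 with PBS. FA replicate 3, with the most of both transcripts, had the lowest ratio of the 6. The difference was -0.39, with an exact two-sided permutation p of 0.4 (adjusted p = 1 over 7 ratios). Nt5e to Ada was lowest in FA replicate 3 at 2.37, against 3.10 to 3.73 in the other 5 tumours, values read off after they were seen. Ratios of Ptgs2 to Ptgs1, Ptgs2 to Hpgd, Arg1 to Arg2 and Entpd1 to Nt5e were all highest in FA replicate 3. These too were read off after they were seen, and Ptgs2, Arg1 and Entpd1 were themselves highest in that tumour. The 7 ratios, with Ido1 to the tryptophanyl-tRNA synthetase gene Wars1 as the last, overlapped between groups, and their exact permutation p ranged from 0.4 to 1. With 3 tumours against 3, no such p can fall below 0.1.

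Profiles were then compared with 161 other tested genes of the route and marker lists, for the 7 members that varied by at least 1 log2 unit. Likeness was the mean absolute difference between centred log2(TPM + 1) profiles over the 6 tumours. Ada and Adora2b were closest to each other, at 0.054, followed for both by Mgll and Tbxas1. Arg1 and Ptgs2 were also each other's nearest gene, at 0.16, with the prostacyclin synthase gene Ptgis among the next 2 for both, Bst1 for Arg1 and Il6 for Ptgs2. Entpd1 was nearest to the monocyte receptor gene Ccr2, at 0.097, then to Dcn and Il1b. Nos2 was nearest to the endothelial genes Cdh5 (0.19) and Pecam1 (0.21) and to Col1a1 (0.22). Arg2 had no close match, with Pla2g4a at 0.23, Muc1 at 0.23 and Cebpb at 0.24, against its own mean deviation of 0.31. These distances are descriptions over 6 tumours in which FA replicate 3 carries much of the variation.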

How the data were processed

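Total RNA of 6 tumours was made into stranded libraries, per the labels' protocols. The authors deposited TPM per Ensembl gene, with STAR, RSEM, featureCounts and FastQC listed in the submitters' processing notes, which give neither their versions nor their order. The sources used here do not give the build or annotation. Columns were matched to tumours by the sample descriptions. Values were analysed as log2(TPM + 1) for the 15023 genes whose mean reached 1 TPM, in R 4.3.3 with limma 3.58.1, without covariate and with a variance trend, and p-values were Benjamini-Hochberg adjusted over all genes tested (threshold 0.05). Errors are SD beside TPM and standard errors beside log2 differences, and intervals are at 95%. TPM gives no depth, so counting error is unknown. The pseudocount of 1 shrinks differences of low genes. Exact permutation tests used 20 assignments. The fit was tested on simulated data, and the permutation test on short constructed examples with a known answer.

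The members, the route and marker lists and the tests were chosen with earlier results of these data known. Further genes named were the 3 of each list with the smallest unadjusted p and a fixed set of 17, apart from 1 that is not reported here. Of 213 list symbols, 2 were matched through RefSeq synonyms (Acp3, Wars1). Same-numbered tumours were not treated as pairs, since the labels do not say that the number pairs them. Their deviations from group means correlated at -0.21, 0.053 and -0.022, against 0.24 for FA replicate 3 with PBS replicate 1. With deviations centred in groups of 3 tumours, these values cannot decide whether tumours were paired.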

Additional observations from a re-analysis of the deposited data

How the results depend on the processing

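No member was called in any setting (smallest adjusted p of limma 0.829). Of 286 alternative values of the differences, ratios and route medians, 44 had the opposite sign. With the replicate number as a block, which the labels do not tie to mice, the differences were as reported (Nt5e 0.10, Nos2 0.48) and 0 genes were called. Array weights, whose estimation stopped before its convergence tolerance so that they are approximate, turned the differences of Entpd1 (-0.055), Ada (-0.036), Adora2b (-0.060), Arg1 (-0.46), Nos2 (-0.15), Ptgs2 (-0.39) and Ptges (-0.046) and the medians of the adenosine (-0.0080), arginine (-0.072) and prostaglandin (-0.028) genes below 0, quantile normalization that of Arg2 (-0.019), and a pseudocount of 0.1 moved Ido1 to 0.33. Without the filter 2 genes were higher in FA, and at an unadjusted p under 0.05, 103 were higher and 89 lower.

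With 1 tumour left out at a time, 0 to 1 genes were called lower, the 1 without FA replicate 3. Differences then ranged from -0.23 to 0.51 for Entpd1, -0.13 to 0.46 for Ada, -0.17 to 0.47 for Adora2b, -0.48 to 0.58 for Arg1, -0.19 to 0.34 for Arg2, -0.28 to 0.90 for Nos2, -0.42 to 0.37 for Ptgs2 and -0.087 to 0.25 for Ptges. The lowest value was without FA replicate 3 for these except Arg2, whose lowest was without PBS replicate 3. Without PBS replicate 2, Arg1 (-0.15) and Ptgs2 (-0.19) were also below 0, while Nt5e stayed between 0.044 and 0.14. Ido1 ranged from 0.0010 to 0.21. Ratios ranged from -0.71 to -0.20 for Arg1 to Nos2, 0.026 to 0.18 for Ido1 to Wars1, -0.50 to 0.49 for Arg1 to Arg2, -0.42 to 0.26 for Nt5e to Ada, -0.36 to 0.38 for Entpd1 to Nt5e, -0.36 to 0.63 for Ptgs2 to Hpgd and -0.46 to 0.24 for Ptgs2 to Ptgs1. Medians ranged from -0.063 to 0.14 for adenosine genes (lowest without PBS replicate 3), -0.079 to 0.14 for arginine genes, -0.053 to 0.13 for prostaglandin genes, -0.058 to 0.051 for tryptophan genes and 0.016 to 0.15 for regulators. The cause was not tested where no tumour was left out. Limits set by sequencing depth are unknown, since TPM does not carry it.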
